A study of Mus musculus with 6 samples.

Results

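The genes described here carry the insulin and IGF signal to the FOXO transcription factors and respond to fasting: the factors Foxo1, Foxo3 and Foxo4, the receptors Insr and Igf1r, the receptor adaptors Irs1 and Irs2, the PI3K regulatory subunit Pik3r1, the kinase Sgk1 and the glucose-response gene Txnip. They were taken by symbol from the 11 gene tables that the authors deposited, and 9 of the 10 were found among 17068 genes. The expression of Irs1 was not analysed here.

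The cells were haematopoietic stem cells (HSCs) that had been purified from bone marrow. The Gfp-Lc3 mice carry a fluorescent tag on the autophagy protein LC3. The 6 libraries, each from 1 mouse, were young ad lib, young 24 h fast, young 24 h fast and 24 h refeed, and the same 3 feeding states in old mice; all 6 groups share the Gfp-Lc3 genotype. The deposited tables compare each of 11 clusters (0 to 10) with all other cells of the 6 libraries together and hold no column for a library. Levels could therefore be compared between clusters, but not between fed, fasted and refed or young and old mice, and with no replicate there is no test: all values below are descriptions.

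When insulin or IGF binds its receptor, the IRS adaptors recruit PI3K through its regulatory subunit, and the kinase AKT then phosphorylates FOXO factors so that they leave the nucleus. In fasting, insulin falls, FOXO factors stay in the nucleus and switch on genes of stress resistance, cell cycle arrest and fuel use, among them Irs2 and Insr themselves. In HSCs, FOXO factors are known for keeping the cells quiescent and for limiting oxidative stress. Both the amount of these factors' RNA and their position in the cell matter, and only RNA was measured.

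The tables cover 22378 cells, a number read from their p-values. From cluster 0 to cluster 10 the sizes were 4904, 3955, 3910, 3802, 3747, 1188, 310, 267, 173, 112 and 10 cells. For 19 genes found in 1 cell each, that cell's depth could be read and lay between 4239 and 22599 counts. Long-term HSC markers were counted in all clusters, with a summed level of 13.9 to 21.8 per 10000 counts over clusters 0 to 9, against at most 0.118 for macrophage and 0.388 for stromal markers. Granulocyte markers summed to 4.26 to 10.9, most of it Prtn3 (8.42 over all cells), while Elane (0.00843) and Mpo (0.00343) were close to 0. Erythroid cell markers summed to 2.29 to 13.5, with the highest sum in cluster 6.

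Levels are given as a percent of the level over all cells, computed from the deposited fold and the cluster's share of the cells. The interval behind a level (95%, Poisson) rests on an estimated number of counts scaled to 10000 per cell and covers counting error only, not differences between mice. A level joins the share of cells with the RNA and the amount per cell, which cannot be told apart here. A gene is called past the fold when the deposited log2 fold change, cluster against the rest, was at least 0.5 in size with counts on both sides. The clusters were made from these same cells, so such a gene is no independent finding.

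Over clusters 0 to 5 the highest level of each of the 9 genes was 1.21 to 1.99 times its lowest. Pik3r1 alone passed the fold there, in 2 of 54 gene and cluster pairs. The range of folds of each of the 9 was above the median range of genes at or above the median level, as given below. In clusters 6 to 10, which held 3.9% of the cells, 11 of 44 pairs passed, 9 higher and 2 lower. Of all genes, 8.66% to 14.2% passed in clusters 0 to 5 and 10.8% to 40.1% in clusters 6 to 10, in the direction given for each cluster below. Among the 9 higher pairs, Sgk1 and Irs2 in cluster 9 and Insr and Igf1r in cluster 7 had intervals clear of the all-cell level.

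**Figure D1:**
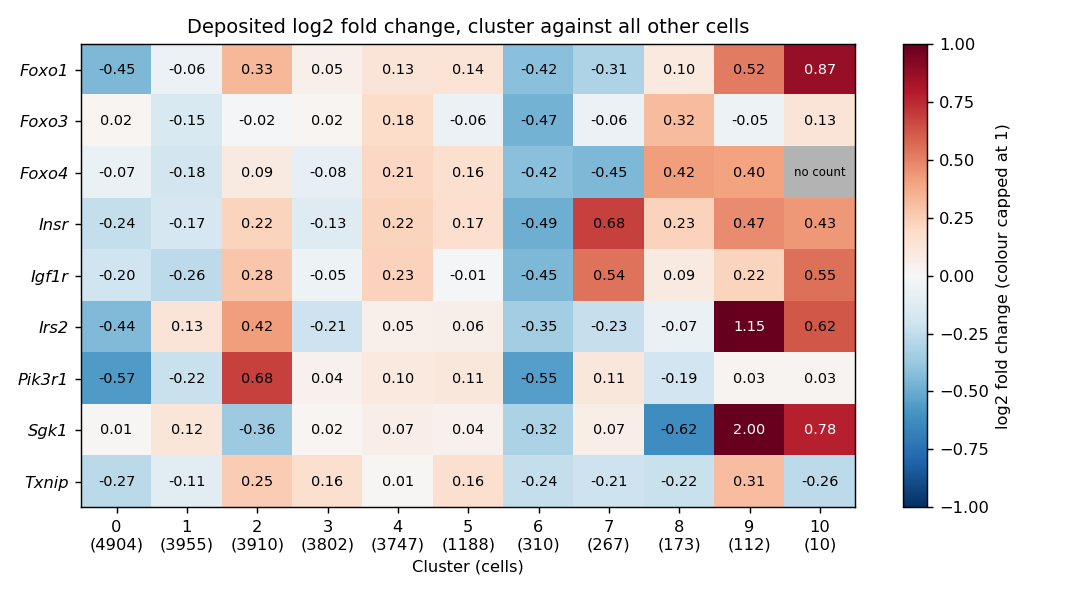
Log2 fold change of each cluster against all other cells in the authors' deposited tables, for the 9 genes (rows) in the 11 clusters (columns, number of cells in brackets); red is higher, blue lower, and colours are capped at 1. Pik3r1 runs from -0.57 in cluster 0 to 0.68 in cluster 2, and Sgk1 reaches 2.00 in cluster 9. All 9 genes lie below 0 in cluster 6, as do 73.0% of all genes.

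Foxo1 (chromosome 3, 52268336 to 52353221, plus strand, mm10), the factor that in liver drives the fasting programme, differed most between clusters among Foxo1, Foxo3 and Foxo4. From cluster 0 to cluster 5 in turn, its level was 77.6%, 96.8%, 120.2%, 102.9%, 107.9% and 109.5% of the all-cell level. Cluster 0 stood below the other 5, whose neighbours in order (2, 5, 4, 3 and 1) had overlapping intervals. The highest was 1.55 times the lowest. Among clusters 6 to 9, cluster 9 was highest at 143.5% (interval 97.7% to 203.4%, about 31.3 scaled counts) and cluster 6 lowest at 75.2%. The 10 cells of cluster 10 gave 182.7%, on about 3.55 scaled counts. Foxo6, measured but not among the genes described here, passed the fold lower in clusters 1 and 3 and higher in cluster 2.

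Foxo3 (chromosome 10, 42181841 to 42276755, minus strand), the factor best known for HSC maintenance, was the most even of the 9 genes over clusters 0 to 5. It lay between 91.7% in cluster 1 and 110.7% in cluster 4, a ratio of 1.21, and no pair of neighbours in the order had intervals apart. The intervals of these ends, 86.9% to 96.8% and 105.2% to 116.4%, did not overlap. Cluster 6 held 72.2% (57.5% to 89.6%) and cluster 8 held 125.0%, with an interval that reaches the all-cell level.

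Foxo4 (chromosome X, 101254528 to 101260873, plus strand) lay between 90.0% in cluster 1 and 112.8% in cluster 4, a ratio of 1.25 with no neighbours apart. The intervals of its ends, 80.9% to 99.8% and 102.3% to 124.0%, did not overlap. It had no count in cluster 10, where 10 cells allow a share of cells with a count of up to 30%. Cluster 0, the lowest for Foxo1, was at 96.4% for Foxo4 and 100.9% for Foxo3, so the 3 factors did not share 1 order.

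Insr, the insulin receptor gene (chromosome 8, 3122061 to 3279617, minus strand), fell into an upper and a lower range over the large clusters. Clusters 4, 2 and 5 had 113.2%, 113.0% and 111.4%, and clusters 3, 1 and 0 had 92.6%, 90.8% and 87.4%. The interval of cluster 5 (98.8% to 125.2%) overlapped that of cluster 3 (86.1% to 99.4%). Cluster 7 was the highest of all at 158.9% (127.9% to 195.1%).

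Igf1r, the receptor for IGF1 (chromosome 7, 67952827 to 68233668, plus strand), had enough counts for a finer order. Clusters 2 and 4 were at 117.0% and 113.9%, clusters 5 and 3 at 99.5% and 97.3%, and clusters 0 and 1 at 89.5% and 86.1%. These formed 3 steps, with intervals that overlapped within a step and not between steps. Cluster 7 reached 144.2% (131.8% to 157.6%) and cluster 6 had 73.4% (65.2% to 82.4%).

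Irs2, the adaptor that insulin-responsive tissues raise in fasting (chromosome 8, 10984681 to 11008458, minus strand), was lowest in cluster 0 at 78.4% and highest of the large clusters in cluster 2 at 126.3%. The ratio was 1.61. Clusters 1, 5, 4 and 3 lay between, at 107.6%, 103.7%, 102.9% and 88.6%, and every neighbour in the order overlapped. The intervals of the ends, cluster 2 (115.4% to 138.0%) and cluster 0 (70.8% to 86.6%), did not overlap. Cluster 9 had 221.1% (142.7% to 327.1%, about 24.7 scaled counts), above the intervals of clusters 0 to 5.

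Pik3r1 encodes p85 alpha, which docks PI3K onto the receptors and adaptors (chromosome 13, 101680563 to 101768217, minus strand). From cluster 0 to cluster 5 in turn, its level was 72.7%, 88.0%, 144.9%, 102.2%, 106.1% and 107.5%. Cluster 2 stood above the other large clusters and cluster 0 below them, with no overlap of intervals. The highest was 1.99 times the lowest. From cluster 6 to cluster 10 it was at 68.7%, 107.5%, 88.0%, 101.8% and 102.0%, so cluster 6 was as low as cluster 0 within its interval (61.5% to 76.5%). Clusters 0 and 2 are each part of the other's rest, so their 2 folds share cells.

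Sgk1, a kinase related to AKT that phosphorylates FOXO3 and is induced by serum and glucocorticoids (chromosome 10, 21882184 to 21999903, plus strand), was nearly even in 5 of the 6 large clusters, from 100.7% to 107.2%. Cluster 2 was lower at 81.0% (72.2% to 90.6%). Cluster 9 was at 394.2% (284.6% to 532.0%, about 42.4 scaled counts), far above the intervals of the other large and small clusters except cluster 10. Cluster 8 had 65.1%, on about 10.8 scaled counts, with an interval of 32.3% to 117.0% that spans the all-cell level.

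Txnip encodes the thioredoxin-interacting protein, which lowers glucose uptake (chromosome 3, 96557957 to 96561883, plus strand). From cluster 0 to cluster 5 in turn it was at 86.3%, 93.8%, 115.0%, 109.5%, 100.5% and 110.7%. Only clusters 5 and 3 overlapped among neighbours. The spread was small in size, with a ratio of 1.33, and no cluster passed the fold; cluster 9 was highest at 124.0% (117.4% to 131.0%).

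**Figure D2:**
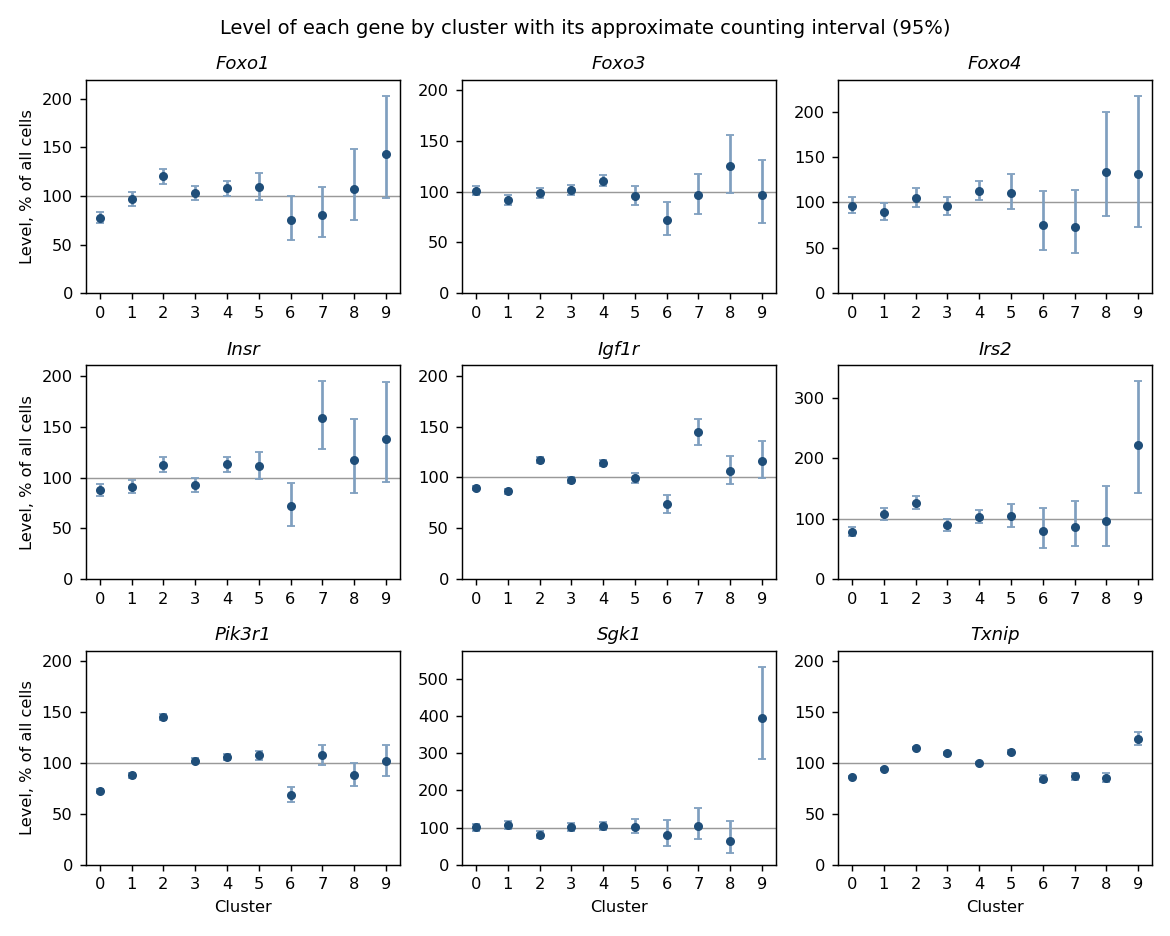
Level of each gene in clusters 0 to 9 as a percent of its level over all cells (line at 100), with the approximate 95% counting interval as bars; the vertical axes start at 0 and differ between panels. Pik3r1 peaks in cluster 2 at 144.9%, Insr and Igf1r in cluster 7, and Irs2 and Sgk1 in cluster 9.

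The upstream windows of Txnip, Irs2 and Pik3r1 are shown because they differ in the letters found. These 3 genes were each highest of the large clusters in cluster 2, as were Foxo1 and Igf1r. The windows of Foxo1 and Igf1r held none of the letters searched. Each printed window is the 250 bases before a RefSeq start (GRCm38.p6). Capitals mark exact matches to GTAAACA (a FOXO binding element), AAAACA (the core of the insulin response element) or CACGTG (an E-box), searched on both strands. Other or inexact forms of these elements were not searched. Txnip is chr3:96557707-96557956 on the plus strand, Irs2 is chr8:11008930-11009179 on the minus strand and Pik3r1 is chr13:101768218-101768467 on the minus strand.
Txnip: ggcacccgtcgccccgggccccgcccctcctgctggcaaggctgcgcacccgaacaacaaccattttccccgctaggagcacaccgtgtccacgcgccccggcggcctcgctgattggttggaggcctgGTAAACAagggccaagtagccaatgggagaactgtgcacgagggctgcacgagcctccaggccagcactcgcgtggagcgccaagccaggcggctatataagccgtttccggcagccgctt
Irs2: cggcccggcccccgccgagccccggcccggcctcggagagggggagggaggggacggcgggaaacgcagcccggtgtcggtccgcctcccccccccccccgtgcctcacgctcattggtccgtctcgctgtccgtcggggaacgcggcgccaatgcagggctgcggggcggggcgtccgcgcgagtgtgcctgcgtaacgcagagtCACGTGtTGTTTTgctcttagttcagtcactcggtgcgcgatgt
Pik3r1: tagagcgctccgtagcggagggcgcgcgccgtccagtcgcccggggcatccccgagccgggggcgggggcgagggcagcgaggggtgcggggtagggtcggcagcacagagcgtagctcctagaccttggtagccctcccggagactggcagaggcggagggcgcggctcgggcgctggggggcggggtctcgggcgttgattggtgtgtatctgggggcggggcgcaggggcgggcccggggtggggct

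GTAAACA began 121 bases before the Txnip start and was in 1 of 14 windows of the 8 listed genes in the table, against 3.17% of 32851 windows of mouse genes. The Irs2 window held CACGTG 44 bases and TGTTTT (the complement of AAAACA) 37 bases before the start. Each of these was in windows of Irs1, Irs2 and Sgk1, against 6.02% and 19.8% of all windows; in Irs1 a CACGTG and a TGTTTT overlap, and in Sgk1 they lie in windows of different starts. The printed Pik3r1 window held none. A match describes letters in this window and is no evidence of binding.

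The count of genes past the fold was read against all genes with counts on both sides. In cluster 0, 1 of 9 genes was lower (Pik3r1), against 11.1% of all genes. In cluster 2, 1 of 9 was higher (Pik3r1), against 8.66%. No gene passed in clusters 1, 3, 4 and 5, against 11.4%, 12.1%, 11.3% and 14.2% of all genes in either direction. These shares are near or above those of the 9 genes, so the counts do not set the 9 apart from all genes. Most genes past the fold were weakly detected: among genes at or above the median level, which include 8 of the 9 (all but Sgk1), 1.96% were lower in cluster 0 and 1.2% higher in cluster 2. Pik3r1 is in that set, where passing was rarer than among all genes.

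**Figure D3:**
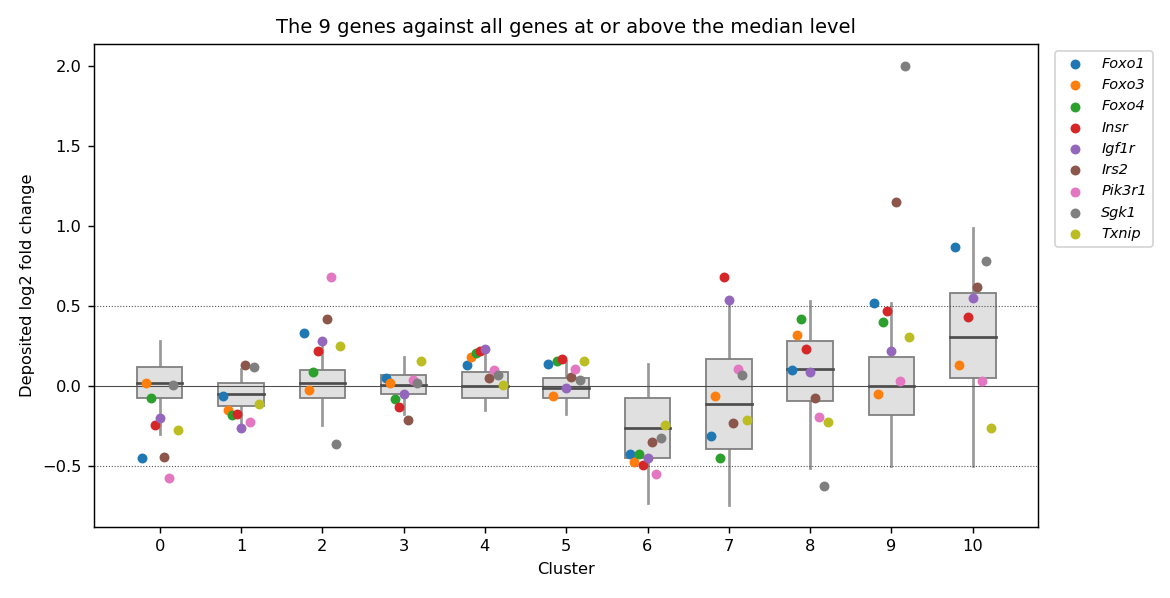
Log2 fold change in the authors' deposited tables for the 9 genes (points) in each cluster, over the spread of all genes at or above the median level (line at the median, box from the 25th to the 75th percentile, whisker from the 5th to the 95th); dotted lines mark 0.5 in size. In cluster 0 most points lie below the box, in cluster 2 most lie above it, and in cluster 6 they follow the low values of all genes.

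The 9 genes lay mostly below 0 in clusters 0 and 1 and mostly above 0 in clusters 2, 4 and 5. The median log2 fold in the authors' deposited tables was -0.24 in cluster 0, with 7 of 9 below 0, where all genes had a median of 0.01 and 48.5% lay below 0. In cluster 2 the median was 0.25, with 7 of 9 above 0, where all genes had 0.02 and 54.9% lay above 0. Foxo3 and Sgk1 were the genes above 0 in cluster 0 and below 0 in cluster 2. In cluster 4 all 9 genes lay above 0, with a median of 0.13 against 0.01 and a highest value of 0.23, while 52.8% of all genes lay above 0. Cluster 1 had a median of -0.15 against -0.06, with 7 of 9 below 0 where 65.5% of all genes were. Cluster 3 had 0.02 against 0.01. Cluster 5 had 0.11 against -0.01, with 7 of 9 above 0 where 47.3% of all genes were.

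Set against 8534 genes at or above the median level, the range of the deposited log2 folds over clusters 0 to 5 was 1.24 for Pik3r1, wider than or equal to that of 98.5% of them. Irs2 (0.86) stood at the 95.7th percentile and Foxo1 (0.78) at the 94.6th in the authors' deposited tables. Igf1r (0.54), Txnip (0.52), Sgk1 (0.48), Insr (0.46) and Foxo4 (0.39) stood at percentiles 86.9, 85.1, 82.3, 80.0 and 70.7 in turn. Foxo3 (0.33) stood at the 58.2nd, close to the median range of 0.3. Genes with few counts have wider ranges from counting alone, which bears on Irs2, Foxo4 and Sgk1 more than on Pik3r1, Igf1r and Txnip.

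Other features moved along the same clusters. In cluster 0, 5 of 10 long-term HSC markers were lower and none higher (summed level 15.0 per 10000), and 6 of 7 megakaryocyte markers were higher (2.47). In cluster 2, 4 of 10 long-term HSC markers were higher (21.8), and 4 of 7 megakaryocyte markers were lower (1.48). The part of these in the values of Pik3r1, Foxo1 and Irs2 was not tested.

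Cluster 9 had the highest levels of Sgk1, Irs2, Foxo1 and Txnip among clusters 0 to 9. In the authors' deposited table Sgk1 was at 2.00, Irs2 at 1.15 and Foxo1 at 0.52, so 3 of 9 genes passed higher, against 18.1% of all genes. Of genes at or above the median level, 5.48% passed higher. That set holds Irs2 and Foxo1 but not Sgk1, whose log2 level (-3.38) lies just below the median (-3.36). Less the cluster median Foxo1 was at 0.48 and no longer passed. Insr at 0.47, Foxo4 at 0.40, Txnip at 0.31 and Igf1r at 0.22 were above 0 in the authors' deposited table without passing, while Pik3r1 (0.03) and Foxo3 (-0.05) lay near 0. Immediate early genes, which cells induce within minutes of a stimulus, moved with this cluster: 23 of 24 were higher with a median of 2.5, and their summed level was 151.1 per 10000 against 23.8 to 37.7 in clusters 0 to 8. Their part in the levels of Sgk1 and Irs2 was not tested. In cluster 4, 4 of 24 immediate early genes were higher and 1 lower, against 5.57% and 5.7% of all genes. The summed level of these 24 was 37.7 per 10000 there. Sgk1 was at 104.1% and Irs2 at 102.9% there. The immediate early level of cluster 4 was far below that of cluster 9, and its part in these values was not tested.

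In cluster 7 both receptor genes were higher. Insr (0.68) and Igf1r (0.54) passed higher in the authors' deposited table, 2 of 9 genes against 16.9% of all genes and 5.96% of those at or above the median level, while Foxo1 (-0.31), Foxo4 (-0.45), Irs2 (-0.23) and Txnip (-0.21) were below 0. All 13 mitochondrially encoded RNAs were higher there, with a summed level of 935.0 per 10000 against 399.6 to 448.2 in clusters 0 to 5. Of 5 stromal markers 4 were higher and 1 had no count, with a summed level of 0.388 against 0.0389 to 0.049 in those clusters; Cxcl12 was at 5.48 in the authors' deposited table. The part of either in the receptor values was not tested.

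In cluster 6 all 9 genes lay below 0, from -0.24 for Txnip to -0.55 for Pik3r1 in the authors' deposited table, with a median of -0.42 against -0.23 for all genes. Of all genes 73.0% lay below 0 there, and of those at or above the median level 83.4%. Pik3r1 alone passed, 1 of 9 genes, against 23.4% of all genes, so the count says nothing apart from the general shift of this cluster. Less the cluster median, Pik3r1 was at -0.32. Mitochondrially encoded RNAs were lower in 11 of 13 (288.7 per 10000), and erythroid cell markers higher in 6 of 8 (13.5 against 2.44 to 3.46 in clusters 0 to 5). Long-term HSC markers were lower in 4 of 10, with 0 of 10 above 0, a median of -0.42 and a summed level of 13.9. The part of these lists was not tested.

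In cluster 8, 1 of 9 genes was lower (Sgk1), against 10.8% of all genes, and the median of 0.09 compared with 0.13 for all genes. In cluster 10, 4 of 8 genes with counts were higher (Foxo1, Sgk1, Irs2 and Igf1r), against 40.1% of all genes. It holds 10 cells, and the interval of each of these 4 spans the all-cell level. Less the cluster median none of the 4 passed.

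The wider pathway was read from 13 lists with 188 measured genes, of which 179 are not among the 9. Of the 179, 8 were higher and 16 lower in cluster 0 (4.47% and 8.94%, against 6.95% and 11.1% of all genes), and 12 were higher and 6 lower of 177 in cluster 2 (6.78% and 3.39%, against 8.66% and 7.18%). At or above the median level, 1.04% of genes were higher and 1.96% lower in cluster 0, and 1.2% and 0.949% in cluster 2. The median of these pathway genes was -0.02 in cluster 0 and 0.06 in cluster 2. The FOXO regulators (deacetylases, 14-3-3 proteins, acetylases and other modifiers) and AMPK subunits had no gene past the fold in clusters 0 to 5, of 21 and 9 measured.

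Of the better-detected pathway genes, some brakes and targets had opposite values in clusters 0 and 2. Trib3, a pseudokinase that binds and inhibits AKT, was at 55.4% in cluster 0 and 146.4% in cluster 2. Klf6, a zinc-finger factor on the FOXO target list, was at 64.6% and 140.5%. Klf9, a glucocorticoid-induced factor of the fasting list, was at 74.3% and 134.3%. Ucp2, a mitochondrial carrier of the same list, ran the other way, at 135.9% and 73.0%. These are the same pair of clusters that stood at the ends for Pik3r1, and each is in the other's rest.

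Further genes of the rule passed in cluster 0 and in no other of clusters 1 to 5, where Klf2 and Cebpb in cluster 2 came close (0.50 each after rounding in the authors' deposited table). Igfbp4, which binds IGFs outside the cell, was at 147.4%. Igf2r, the receptor that clears IGF2, was at 70.8%. Socs1, a cytokine feedback inhibitor, was at 75.4%, and Klf2 and Cebpb were at 65.7% and 62.9%.

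**Figure D4:**
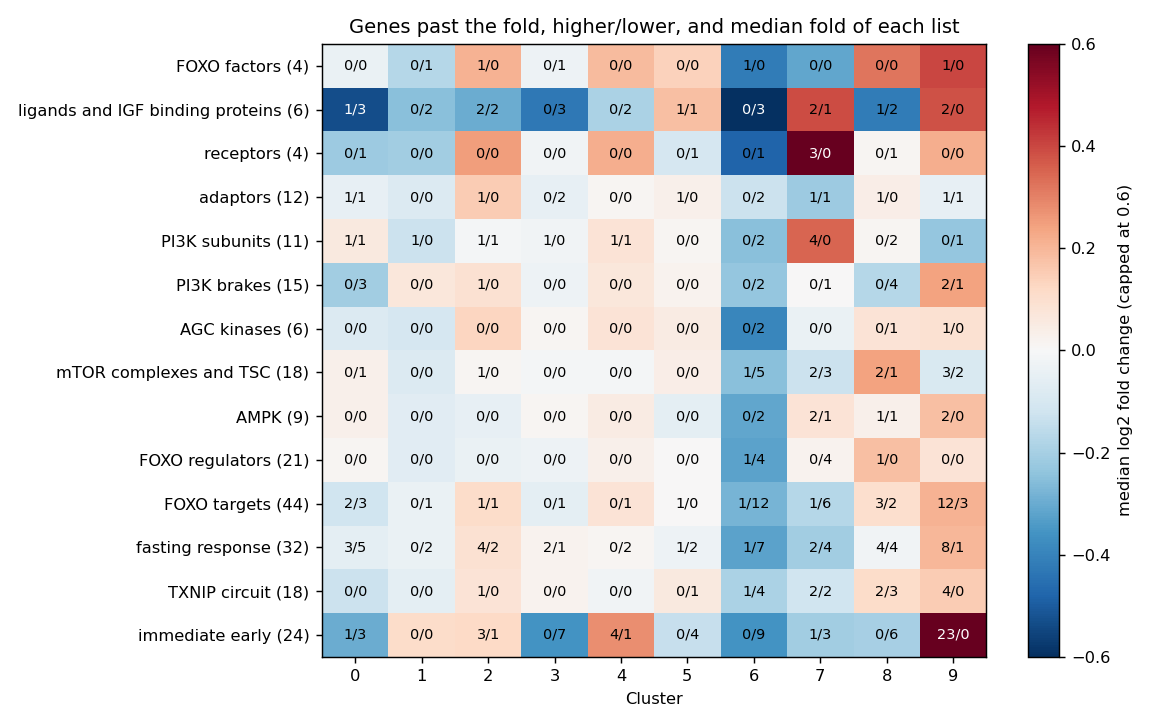
Number of genes past the fold in each list (higher/lower, with the measured genes in brackets) for clusters 0 to 9; colour gives the median log2 fold change in the authors' deposited tables, capped at 0.6. FOXO targets have 12 higher and 3 lower genes in cluster 9 and 1 higher and 12 lower in cluster 6, and the immediate early list has 23 higher in cluster 9.

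FOXO targets were higher in 12 and lower in 3 of 43 genes with counts in cluster 9, with a median of 0.21. Fasting response genes were higher in 8 and lower in 1 of 28, and genes around TXNIP in glucose sensing higher in 4 and lower in 0 of 17. All genes had 18.1% higher and 9.46% lower. The 8 fasting genes include Sgk1, Irs2 and Foxo1, reported above, and Irs2 is also among the FOXO targets. Without the 9 genes, 26 pathway genes were higher and 9 lower of 166 with counts (15.7% and 5.42%), both below the shares of all genes. Those shares include weakly detected genes. At or above the median level 5.48% of genes were higher and 5.04% lower, and the pathway genes of this cluster were not counted by level. The genes named for this cluster were chosen after their values were seen. Klf2, a FOXO target that keeps lymphocytes quiescent, was at 1394.2% of the all-cell level, Gadd45b at 369.8%, Klf6 at 335.3% and S1pr1 at 190.3%. Klf2 and Klf6 are also on the immediate early list. The insulin signal brake Socs3 was at 295.6%, Cebpb at 261.7%, the hexokinase gene Hk2 at 246.7% and the mTORC1 inhibitor gene Ddit4 at 164.6%. Fkbp5, a glucocorticoid receptor co-chaperone induced by glucocorticoids, was at 60.1%, and Klf9, which they also induce, was at 180.8%. Whether glucocorticoids had a part in these values was not tested.

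The authors' deposited pathway tables score cells for published gene sets, and 63 sets were found by words such as FOXO, insulin, IRS, PI3K or AKT. Some of these match by name only, such as sets of insulin secretion, and the genes in each set were not analysed here. The sets may hold the 9 genes and share genes with one another, and 1 pair of sets had identical folds. The counts of sets can therefore not be taken as independent of the values above. In cluster 2, 59 of the 63 sets were above 0, where 61.7% of all sets were. In cluster 4 it was 56 of 63 (59.7% of all sets), in cluster 0 it was 27 (63.8%) and in cluster 1 it was 5 (19.9%). In the authors' deposited tables the Reactome set of IRS activation was at -0.39 in cluster 0 and 0.34 in cluster 2, and at -0.59 and 0.45 in clusters 6 and 7. FOXO-mediated transcription as a whole was at 0.04 in cluster 2 and 0.13 in cluster 9 of the authors' deposited tables. Its subset of cell cycle genes was at 0.54 in cluster 9 in the authors' deposited table.

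Over the 6 large clusters, Foxo1 and Pik3r1 had folds with a Pearson r of 0.95, Foxo1 and Txnip 0.91, and Pik3r1 and Txnip 0.91. Pik3r1 and Sgk1 had -0.74 and Foxo1 and Foxo3 had 0.07. These are 6 points that share cells and depth, and 36 pairs were computed. The genes with folds most like those of Pik3r1 were Ifitm7 (r 0.996), Pdcd7 (0.993) and Cbx6 (0.992), and those most like Foxo1 were Ppp1r7 (0.998), Eepd1 (0.993) and Tomm34 (0.993). For Pik3r1, 101 of 8534 genes had an r over 0.95, so the order among them is weak. Over clusters 0 to 9, Cbx6 alone of the 27 genes named in this way for the 9 stayed among the 3 most alike.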

How the data were processed

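Scanpy and the mm10 build are named, per the submitters' processing notes. The aligner, cell filters, doublet handling and clustering settings were each not given in the sources used here. Gene tables deposited by the authors hold a mean level per gene as log2 of counts scaled to 10000 per cell, a log2 fold change, a p-value over cells and an adjusted p-value. In the pathway tables the authors give a score and a log2 fold change. The deposited log2 folds were checked on 209 values of 19 genes seen in 1 cell: they are folds of back-transformed mean log counts (deviation at most 1e-06), not of mean counts (0.27 to 0.96).

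Cell numbers were read from the p-values of genes seen in 1 cell, for 7 clusters from both sides. Levels change by at most 1.2% if the curvature of the log is allowed for. The steps were tested on simulated data. Python 3.11.15, pandas 2.3.3 and scipy 1.17.1 were used. The members, lists, motifs and fold rule were chosen with earlier results of these data known. The named genes were the 9 members and, per pathway list and cluster 0 to 5, up to 4 genes past the fold with the largest fold among genes at or above the median level of all genes; for likeness, the 3 with the highest Pearson r. Alternatives were a fold of 0.25 or 1, an adjusted p-value under 0.05 as well, folds less the cluster median, well-detected genes only, equal cluster shares, clusters 0 to 9, and the sign of the score. Gene positions are from GENCODE M21.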

Additional observations from a re-analysis of the deposited data

How the results depend on the processing

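No paired analysis was possible because each condition is 1 library and the tables hold no library columns. Of 59 recomputed values, 25 moved, by over 1.5 times for a count or by over the counting interval's half-width for a level or fold; no fold past the threshold reversed. In clusters 0 to 5 the genes past the fold (1 higher, 1 lower) became 4 and 6 at a fold of 0.25 and 0 and 0 at a fold of 1. In clusters 6 to 10 (9 higher, 2 lower) they became 15 and 12 at 0.25 and 2 and 0 at 1; 4 and 1 with an adjusted p under 0.05 as well; 4 higher with folds less the cluster median, where Foxo1 in cluster 9 (0.48) and Foxo1 (0.5 after rounding), Sgk1 (0.4), Irs2 (0.24) and Igf1r (0.18) in cluster 10 no longer passed; and 7 higher and 1 lower among genes at or above the median level. Pathway genes in clusters 0 to 5 (30 higher, 48 lower) became 100 and 115 at 0.25, 11 and 16 at 1, 15 and 29 with the adjusted p, and 6 and 9 among genes at or above the median level. With equal cluster shares the highest over the lowest level became 1.4 for Igf1r, 2.18 for Pik3r1 and 1.38 for Txnip. The looser and stricter folds and the level filter change the counts by construction. Depth limits the values of clusters 6 to 10, where Foxo1, Irs2, Sgk1 and Foxo4 rest on under 50 scaled counts each.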
